A study of Homo sapiens with 17 samples.

Results

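The genes of the Fanconi anemia pathway were followed in BEAS-2B, a line of human bronchial epithelial cells immortalised with a viral T antigen, exposed for 24 h to acetaldehyde at 0, 10 or 16 mM. Members were the genes whose deposited KEGG annotation names this pathway and does not also name DNA replication, which gave 50 of the 16884 genes listed and set aside 3 (RPA1, RPA2 and RPA3). All cells were wild type and grown in BEGM. There were 6 libraries without acetaldehyde (control), 6 at 10 mM and 5 at 16 mM. The labels name no vehicle and no batch, and they do not say whether libraries of a dose came from separate cultures, so p-values measure only the spread between libraries, which may be technical.

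The pathway repairs interstrand crosslinks, lesions that tie both DNA strands together and that reactive aldehydes such as acetaldehyde can leave. FANCM with its partner FAAP24 binds the stalled fork and anchors the core complex, whose ring-finger subunit FANCL takes ubiquitin from the conjugating enzyme UBE2T and places it on FANCI and FANCD2, the ID complex. Nucleases then cut beside the crosslink, translesion polymerases copy past it, recombination proteins restore the broken strand, and USP1 with WDR48 takes the ubiquitin off again. The members were sorted into 7 such roles, of which the core complex and its partners was the largest with 16 genes.

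Estimated counts per library totalled between 15952673 and 18809242. Levels are given in FPKM, which scales for transcript length and library depth. Of the 50 members 49 had enough counts to be tested. Their mean control level ran from 0.408 FPKM (the polymerase POLN) to 111 FPKM (USP1) with a median of 18.8 FPKM, and 36 stood at 10 FPKM or more. The remaining member, SLX1B, was listed between 0 and 4.63 FPKM and is nearly identical to SLX1A, so the division of reads between both is uncertain. CENPS-CORT is a readthrough transcript that shares exons with CENPS, and their values are uncertain in the same way. The keratin genes KRT8, KRT18 and KRT7 were the 3 of 8 epithelial markers with a mean of at least 1 FPKM at every dose, while KRT19, KRT5, EPCAM and CDH1 stood at or under 0.12 FPKM in every library. Each of the 7 blood and endothelial markers listed stayed under 1 FPKM. Of 7 fibroblast markers listed, 3 (THY1, PDGFRB and COL1A1) had a mean of at least 1 FPKM at every dose. The summed level of this list ran from 29.9 to 49.2 FPKM in control, 24.7 to 34.1 FPKM at 10 mM and 20.3 to 25.6 FPKM at 16 mM, with COL3A1 and COL1A2 at or under 0.01 FPKM in every library. The part of such a shift in the member changes was not tested.

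Some libraries stood apart. The members took 0.332% to 0.427% of the counts in control, 0.203% in 10 mM library 1 but 0.293% to 0.350% in 10 mM libraries 2 to 6, and 0.304% to 0.371% at 16 mM. Within each dose the libraries also fell into sets lying close together: control 1 to 3 and 4 to 6, 10 mM 2 to 4 and 5 to 6, and 16 mM 1 to 3 and 4 to 5. Controls 1 to 3 all lay above controls 4 to 6 in 33 of 49 members and all below in 3, beside 41.8% and 17.4% of all tested genes, with a median log2 ratio of libraries 4 to 6 over 1 to 3 of -0.26. The labels do not name these sets. Results are therefore given with and without 10 mM library 1, and the changes were also computed within the sets. Levels and overlaps are in FPKM, which leave out the TMM factor used in the tests (0.559 in 10 mM library 1, at least 0.967 elsewhere). Values of that library therefore stand lower beside the others than on edgeR's scale, and some separations named below may not hold there.

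Library 1 at 10 mM differed from the other 10 mM libraries along transcript length. The length was taken as the one that each gene's count and FPKM imply. Among the 9 members under 1.5 kb, 6 stood above the median of 10 mM libraries 2 to 6 in this library, and their median log2 deviation was 0.62. The 29 members of 1.5 to 5 kb had a median of -1.0, and all 11 members of 5 kb or more stood below, with a median of -1.90. Across the 49 members the deviation correlated with log2 length at Pearson r = -0.75 and Spearman rho = -0.76, a description over genes of 1 library and not over replicates. BRCA2, a mediator of homologous recombination and the longest member at 11.6 kb, was listed at 1.54 FPKM in this library, against 12.3 to 16.8 FPKM in 10 mM libraries 2 to 6. CENPX, a histone-fold partner of FANCM and the shortest at 0.435 kb, was listed at 293 FPKM, against 80.5 to 89.1 FPKM. What sets this library apart was not tested.

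**Figure D1:**
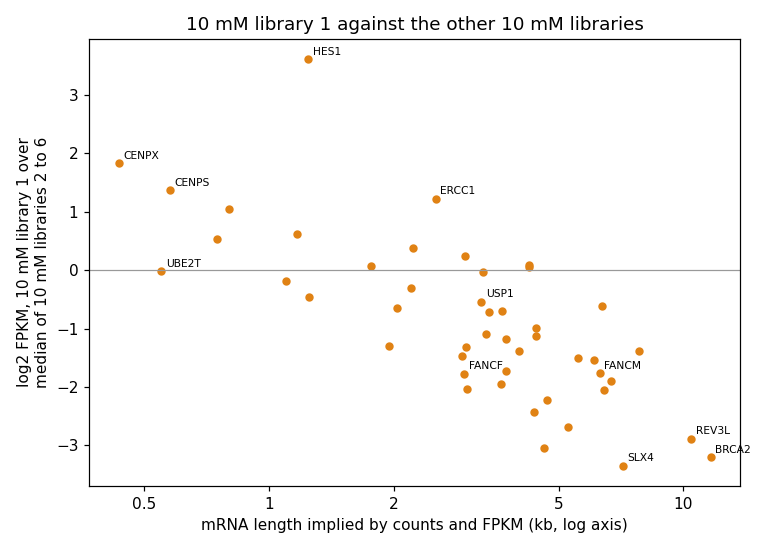
Log2 FPKM of 10 mM library 1 over the median of 10 mM libraries 2 to 6 (vertical axis), against the mRNA length implied by counts and FPKM (horizontal log axis, kb), with 1 point for each of 47 members. Short transcripts lie mostly above 0 and all 11 of 5 kb or more lie below it.

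At 10 mM 13 of 49 members fell and 2 rose, and at 16 mM 8 fell and 4 rose. At 16 mM 12 of 49 members changed, by the quasi-likelihood test of edgeR (called at an adjusted p under 0.05, Benjamini-Hochberg over 12564 genes, given below as the edgeR adjusted p). Among all tested genes 35.3% were called in this comparison, against 24.5% of the members. By direction 17.3% of all genes were higher and 18.1% lower at 16 mM, so that the 8 of 49 members lower lie near the share of all genes. At 10 mM 15 members changed, which is 30.6% of the members beside 18.7% of all tested genes. Over all tested genes at 10 mM 9.41% were called higher and 9.3% lower. The median member changed by -0.16 on the log2 scale at 16 mM, where the median of all genes was 0.00, and by -0.14 at 10 mM, where it was 0.05. In bulk RNA of a cell line, less RNA per cell and fewer cells in a state that expresses a gene cannot be told apart.

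Without 10 mM library 1 more members passed, in a fit where more genes passed in general. At 16 mM 34 members changed (13 higher, 21 lower) beside 65.9% of all tested genes (33.7% higher, 32.2% lower). At 10 mM 28 changed (4 higher, 24 lower) beside 45.2% (22.4% higher, 22.8% lower). All 12 and all 15 members called over 17 libraries were called there with the same sign. At 10 mM the count depended also on single controls: it was 9 without control library 2 and 8 without control library 3. Both doses share the control libraries, so their values stand side by side and are not independent. With the counts of close libraries summed into 1 sample each, 0 members and 0 genes passed edgeR's test at either dose, 2 members reaching an unadjusted p under 0.05 at each dose. Summed without 10 mM library 1, 7 members passed at 16 mM, among them HES1, RMI2, FANCE, CENPS, FANCC and UBE2T, and 1 at 10 mM (FANCE), beside 25.8% of all genes tested in that fit at 16 mM and 1.83% at 10 mM.

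**Figure D2:**
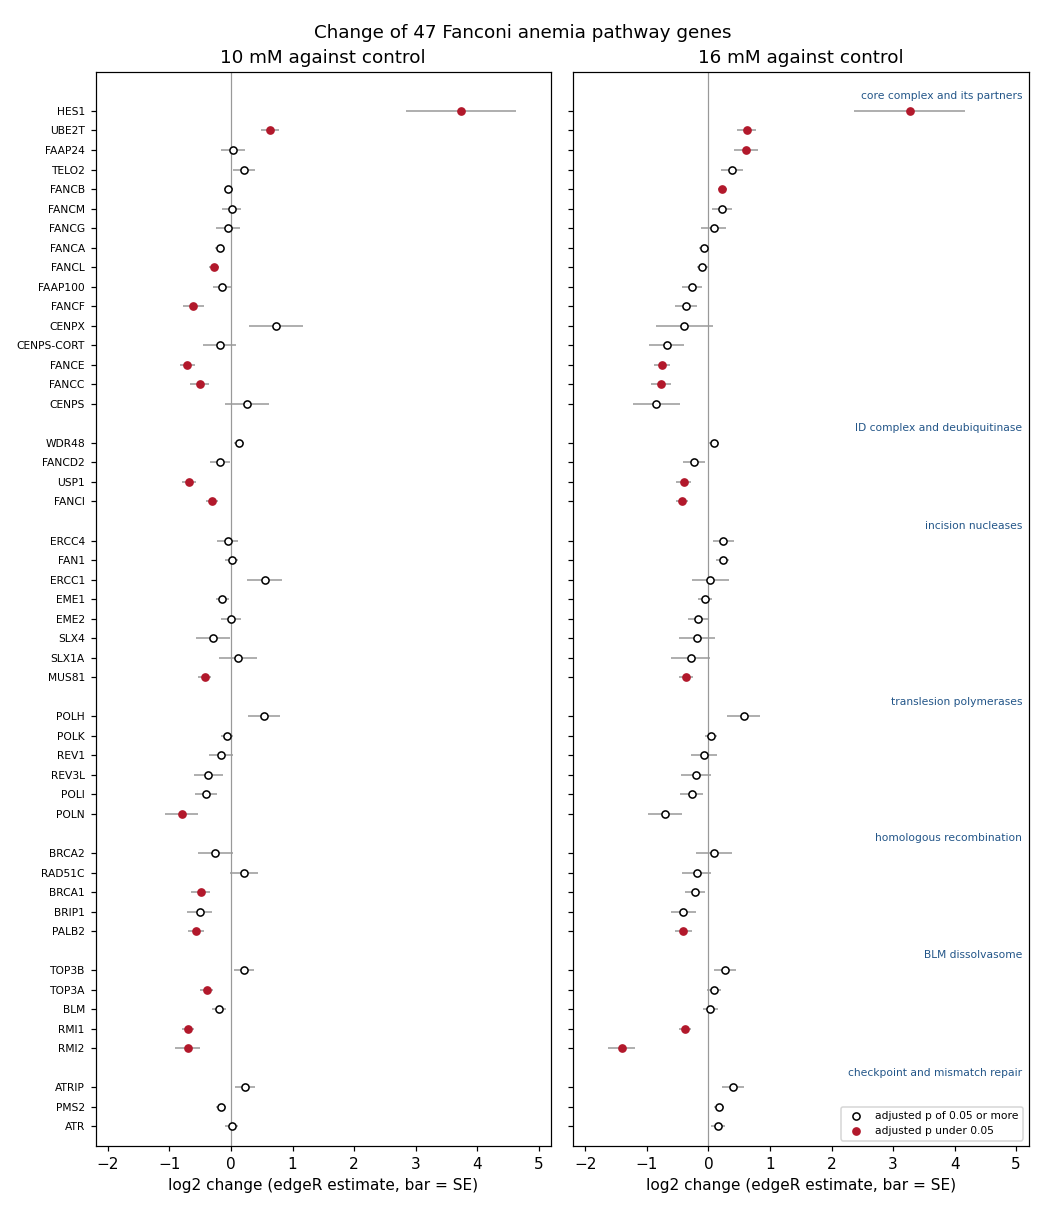
Log2 change of 47 members (edgeR estimate, bars = SE) at 10 mM (left) and 16 mM (right) against control, sorted by role, with red points for an edgeR adjusted p under 0.05. Red points at 16 mM run from RMI2 at -1.4 to HES1 at 3.27, and 8 of 12 lie below 0.

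In the core complex and its partners, the conjugating enzyme rose while several subunits fell. UBE2T, on chromosome 1 (202331657 to 202341936, GRCh38.p13), ranged from 101 to 122 FPKM in control (median 109) and from 142 to 156 FPKM at 10 mM (median 147), and had 194, 190, 185, 142 and 136 FPKM in 16 mM libraries 1 to 5. Every exposed library lay above every control library, 10 mM library 1 included. UBE2T changed by 0.62 ± 0.16 (log2, estimate ± SE) at 16 mM (edgeR adjusted p = 0.00526) and by 0.64 ± 0.15 at 10 mM (edgeR adjusted p = 0.00762). Without 10 mM library 1 the 10 mM change was 0.44 ± 0.07, and 16 mM then exceeded 10 mM by 0.19 ± 0.07 (edgeR adjusted p = 0.0291).

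FANCE, the subunit that bridges the core complex to FANCD2, was among the most regular falls. It ranged from 21.9 to 30.2 FPKM in control (median 26.9) and from 12.3 to 16.4 FPKM at 10 mM (median 14.4), and had 18, 16.6, 15.4, 13.6 and 12.8 FPKM at 16 mM. No exposed library reached the lowest control. Its change was -0.76 ± 0.13 at 16 mM (edgeR adjusted p = 0.000231) and -0.71 ± 0.12 at 10 mM (edgeR adjusted p = 0.000764). The doses did not separate, with 16 mM over 10 mM at -0.05 ± 0.13 (edgeR adjusted p = 0.821).

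FANCC, which binds FANCE in the complex, ranged from 13.0 to 16.9 FPKM in control (median 15.0) and from 3.48 FPKM in library 1 to 12.8 FPKM at 10 mM (median 11.5), and had 10.5, 9.95, 10.7, 6.45 and 5.91 FPKM at 16 mM. Both exposed groups lay wholly below the controls, and 16 mM libraries 4 and 5 were lower than 1 to 3. FANCC fell by 0.77 ± 0.16 at 16 mM (log2, edgeR adjusted p = 0.00161) and by 0.51 ± 0.15 at 10 mM (edgeR adjusted p = 0.03). The 10 mM call was lost without control library 1, 2 or 3 or 10 mM library 5 (edgeR adjusted p from 0.0553 to 0.0652). Without 10 mM library 1 the 10 mM change was -0.39 ± 0.11, and 16 mM lay below 10 mM by a log2 difference of -0.36 ± 0.12 (edgeR adjusted p = 0.0205).

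FANCF, the adaptor between subcomplexes, fell at 10 mM (-0.61 ± 0.17, edgeR adjusted p = 0.0207; 0.0534 without control library 3). It ranged from 1.49 to 2.42 FPKM in control (median 1.91), from 0.34 FPKM in library 1 to 1.47 FPKM at 10 mM (median 1.38), and had 1.62, 1.62, 1.55, 1.20 and 1.39 FPKM at 16 mM. The 10 mM libraries did not overlap the controls, whereas the 16 mM libraries did, and there the change was -0.36 ± 0.18 (edgeR adjusted p = 0.135). Without 10 mM library 1 FANCF passed at 16 mM too (-0.35 ± 0.12, edgeR adjusted p = 0.0186), beside -0.49 ± 0.12 at 10 mM. In that fit the doses did not separate (0.13 ± 0.13, edgeR adjusted p = 0.43). FANCL, the ubiquitin ligase, ranged from 19.5 to 29.9 FPKM in control (median 26.2) and from 16.2 to 22.9 FPKM at 10 mM (median 22.1), and had 27.1, 25.8, 24.8, 22.4 and 20.6 FPKM at 16 mM. Its groups overlapped at both doses. FANCL changed by -0.28 ± 0.08 at 10 mM (edgeR adjusted p = 0.0263) and by -0.10 ± 0.09 at 16 mM (edgeR adjusted p = 0.403). Its 10 mM call was lost without control library 1, 2 or 3 or 10 mM library 3 (edgeR adjusted p from 0.0503 to 0.0688).

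A pair of partners passed at 16 mM and not at 10 mM. FAAP24, the FANCM partner that binds DNA, ranged from 2.31 to 3.42 FPKM in control (median 2.96) and from 2.00 to 3.03 FPKM at 10 mM (median 2.67), and had 3.45, 4.55, 4.87, 4.64 and 5.41 FPKM at 16 mM. All 16 mM libraries lay above all controls, the lowest by a small margin. FAAP24 changed by 0.61 ± 0.20 at 16 mM (edgeR adjusted p = 0.0235) and 0.03 ± 0.19 at 10 mM, and the 16 mM call was lost without control library 6 or 16 mM library 4 or 5 (edgeR adjusted p from 0.0524 to 0.0726). The dose difference was 0.59 ± 0.20 (edgeR adjusted p = 0.0589), and 0.80 ± 0.14 without 10 mM library 1 (edgeR adjusted p = 0.000337). FANCB, the X-linked partner of FANCL, ranged from 12.7 to 15.7 FPKM in control (median 13.7) and from 8.24 to 13.8 FPKM at 10 mM (median 13.3), and had 16.6, 15.9, 16.7, 17.2 and 15.3 FPKM at 16 mM. Only 16 mM library 5 fell within the control range. Its change of 0.23 ± 0.07 at 16 mM (edgeR adjusted p = 0.0206) was small, and 16 mM exceeded 10 mM by 0.27 ± 0.07 (edgeR adjusted p = 0.0209). Without 16 mM library 4 neither FANCB call was kept (edgeR adjusted p = 0.0678 and 0.0716).

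HES1, a transcriptional repressor downstream of Notch that has been reported to bind core complex subunits, had the largest change and the largest dependence on a single library. It ranged from 0.38 to 0.95 FPKM in control (median 0.685), had 25.1 FPKM in 10 mM library 1 and 1.32 to 2.21 FPKM in 10 mM libraries 2 to 6, and stood at 5.35, 6.80, 6.54, 7.67 and 6.65 FPKM at 16 mM. The lowest exposed library lay above the highest control at both doses. At 16 mM HES1 rose by 3.27 ± 0.90 (edgeR adjusted p = 0.00908). At 10 mM it rose by 3.74 ± 0.89 with library 1 (edgeR adjusted p = 0.0078) and by 1.4 ± 0.20 without it (edgeR adjusted p = 4.31e-05). The order of the doses turned with that library: 16 mM minus 10 mM was -0.47 ± 0.80 with it and 1.87 ± 0.18 without it (edgeR adjusted p = 2.87e-06).

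Of the other 8 core complex entries, FANCA, the subunit most often mutated in the disease, had 21.7, 22.5, 21.1, 19 and 18.9 FPKM at 16 mM, against 19.8 to 24.1 FPKM in control (median 21.6), with overlapping groups. FANCM, the translocase, had 7.65, 6.37, 6.99, 6.23 and 5.55 FPKM at 16 mM, against 4.87 to 5.92 FPKM in control (median 5.56), again with an overlap. Neither passed the test at either dose over 17 libraries, with FANCM at 0.23 ± 0.16 at 16 mM (edgeR adjusted p = 0.309). Without 10 mM library 1 FANCM was higher at 16 mM (0.23 ± 0.06, edgeR adjusted p = 0.00444), and FANCA was lower at 10 mM (-0.20 ± 0.06, edgeR adjusted p = 0.0134). In that same fit the telomere-linked TELO2 was also higher at 16 mM (0.39 ± 0.07). Lower at 16 mM were the subunit FAAP100 (-0.26 ± 0.06), the histone-fold partners CENPS (-0.84 ± 0.11) and CENPX (-0.38 ± 0.08) and the readthrough CENPS-CORT (-0.67 ± 0.14). At 10 mM FAAP100 (-0.33 ± 0.06), CENPS (-0.43 ± 0.11), CENPX (-0.25 ± 0.08) and CENPS-CORT (-0.60 ± 0.14) were lower as well, while TELO2 did not pass. FANCG, which holds FANCA in the complex, was lower only in the 10 mM contrast of that fit, at -0.35 ± 0.06, beside 0.09 ± 0.06 at 16 mM, with 0.44 ± 0.06 between the doses (edgeR adjusted p = 6.35e-05).

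**Figure D3:**
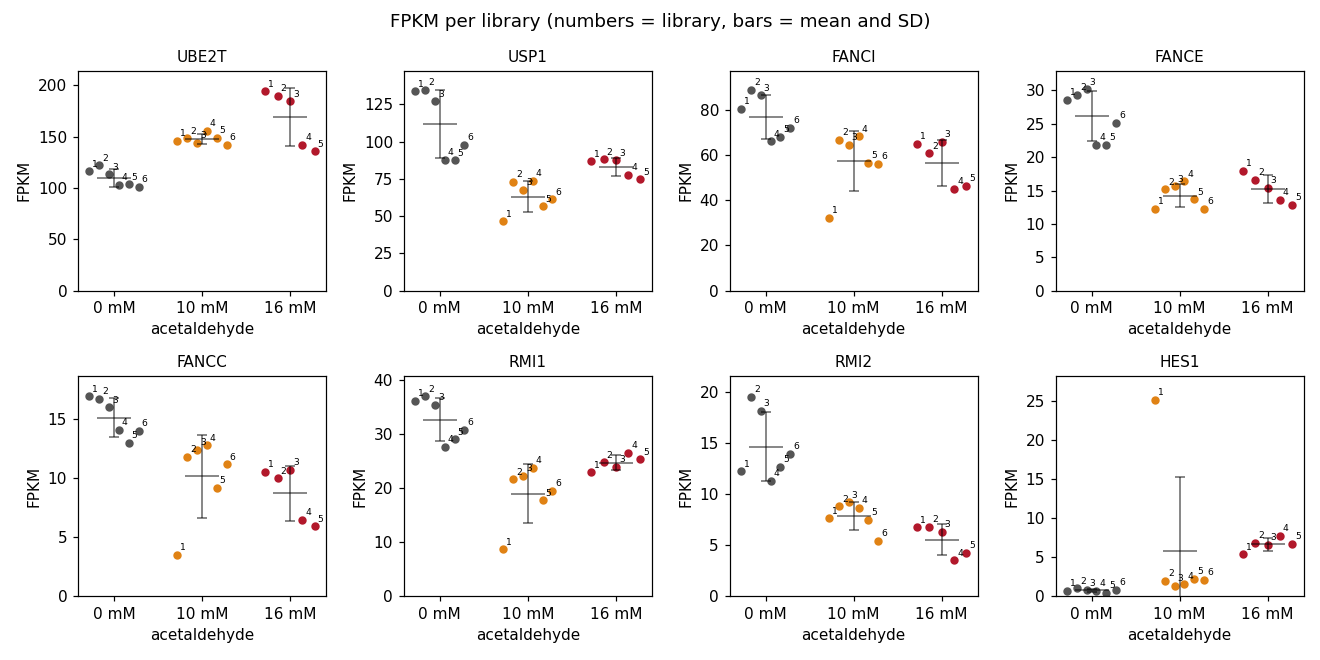
FPKM of 8 members in every library at 0, 10 and 16 mM acetaldehyde, with library numbers beside the points and bars for mean and SD. FANCE, RMI1 and RMI2 lie below all controls in every exposed library, UBE2T lies above all controls, and HES1 in 10 mM library 1 stands at 25.1 FPKM.

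The promoters of UBE2T and HES1, the called members that rose at both doses, and of RMI1 and FANCC, called members that fell at both, show which common cell-cycle promoter letters lie before genes that moved in opposite directions. Each is the 150 bases before the start that RefSeq gives on GRCh38.p14, 5′ to 3′ on the gene's strand. Capitals mark CCAAT or its reverse complement ATTGG, and the E2F word TTTCCCGC.
UBE2T: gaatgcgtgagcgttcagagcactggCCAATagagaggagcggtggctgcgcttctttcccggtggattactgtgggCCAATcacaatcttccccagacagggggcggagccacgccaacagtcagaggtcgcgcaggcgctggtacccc
HES1: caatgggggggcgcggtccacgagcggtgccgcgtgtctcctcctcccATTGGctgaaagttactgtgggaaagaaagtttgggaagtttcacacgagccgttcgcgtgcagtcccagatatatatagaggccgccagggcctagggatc
RMI1: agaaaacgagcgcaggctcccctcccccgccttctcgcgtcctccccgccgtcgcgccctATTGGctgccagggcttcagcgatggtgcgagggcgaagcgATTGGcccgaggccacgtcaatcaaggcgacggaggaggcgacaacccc
FANCC: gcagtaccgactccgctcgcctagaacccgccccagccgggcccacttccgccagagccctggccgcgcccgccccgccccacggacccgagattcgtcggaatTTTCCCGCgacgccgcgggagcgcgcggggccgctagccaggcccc
They lie at chr1:202341937-202342086 (minus strand), chr3:194135998-194136147 (plus), chr9:83980209-83980358 (plus) and chr9:95317710-95317859 (minus). The FANCC start used by RefSeq lies inside the span of the deposited gene. CCAAT begins 124 and 73 bases before the start of UBE2T, and ATTGG begins 102 bases before that of HES1 and 90 and 49 bases before that of RMI1. TTTCCCGC begins 46 bases before that of FANCC.

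Over the 250 bases before the start, on both strands, CCAAT was found in 17 of the 45 member promoters matched (37.8%), beside 35.2% of the 10100 promoters of tested genes. One of the E2F words TTTCCCGC, TTTGGCGC or TTTCGCGC was found in 4 (8.89%), beside 3.91%, and TTTGAA or TTCGAA, words of the cell-cycle homology region, in 5 (11.1%), beside 9.64%. CCAAT occurred before members that rose (UBE2T, HES1, FAAP24) and before members that fell (RMI1, USP1, PALB2, MUS81, FANCF). The E2F words lay before FANCC, POLI and the nearly identical SLX1A and SLX1B, of which SLX1B was not tested. That pair counts among the 17 with CCAAT too. A match in letters does not show a site in use.

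In the ID complex and its deubiquitinase, 2 of 4 members fell at both doses. Of all tested genes 18.1% were lower at 16 mM and 9.3% at 10 mM. Each role holds too few genes for such a count to set it apart. FANCI, which clamps DNA with FANCD2, ranged from 66.1 to 88.9 FPKM in control (median 76.1) and from 32.2 FPKM in library 1 to 68.2 FPKM at 10 mM (median 60.5), and had 64.9, 60.8, 65.7, 44.9 and 46.5 FPKM at 16 mM. The 16 mM libraries all lay below the controls, and 10 mM libraries 2 and 4 reached the control range. FANCI fell by 0.43 ± 0.10 at 16 mM (edgeR adjusted p = 0.00245) and by 0.31 ± 0.09 at 10 mM (edgeR adjusted p = 0.0283). The 10 mM call was lost without control library 1, 2 or 3 or 10 mM library 5 or 6 (edgeR adjusted p from 0.0563 to 0.0682). Its partner FANCD2 ranged from 26.6 to 33.2 FPKM in control (median 27.4) and from 6.00 FPKM in library 1 to 29.5 FPKM at 10 mM (median 27.8), and had 28.1, 27.4, 25.8, 19 and 21.6 FPKM at 16 mM. Among the 16 mM libraries 3, 4 and 5 lay below the lowest control, as did 10 mM library 1. FANCD2 changed by -0.24 ± 0.18 at 16 mM (edgeR adjusted p = 0.319), and by -0.23 ± 0.06 without 10 mM library 1 (edgeR adjusted p = 0.00471).

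USP1, the protease that strips ubiquitin from FANCD2 and FANCI, ranged from 87.5 to 135 FPKM in control (median 113) and from 46.5 to 73.8 FPKM at 10 mM (median 64.5), and had 86.8, 88.2, 87.4, 77.8 and 74.7 FPKM at 16 mM. At 10 mM no library reached the lowest control, and at 16 mM library 2 did. USP1 fell by 0.69 ± 0.11 at 10 mM (edgeR adjusted p = 0.000612) and by 0.40 ± 0.12 at 16 mM (edgeR adjusted p = 0.015). The dose difference was 0.29 ± 0.12 (edgeR adjusted p = 0.113), and 0.35 ± 0.10 without 10 mM library 1 (edgeR adjusted p = 0.0105). Its activator WDR48 averaged 15.5 ± 1.46 FPKM at 16 mM (SD, n = 5) and 14.6 ± 0.916 FPKM in control (n = 6), a log2 change of 0.09 ± 0.09 (edgeR adjusted p = 0.463).

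The dissolvasome, in which the helicase BLM and the topoisomerase TOP3A with RMI1 and RMI2 undo crossed DNA strands, held the deepest fall. RMI2, on chromosome 16 (11345459 to 11351760), had 12.2, 19.5, 18.2, 11.3, 12.6 and 13.9 FPKM in the controls (median 13.3), 5.38 to 9.16 FPKM at 10 mM (median 8.12), and 6.73, 6.75, 6.28, 3.51 and 4.22 FPKM at 16 mM. In FPKM every exposed library lay below every control, though 10 mM library 1 may not on edgeR's scale. RMI2 fell by 1.4 ± 0.22 at 16 mM (edgeR adjusted p = 0.000119), to 0.378 of its control level, and by 0.71 ± 0.20 at 10 mM (edgeR adjusted p = 0.0239). Its 10 mM call was lost without control library 2 or 3 or 10 mM library 6 (edgeR adjusted p from 0.0552 to 0.0625). The doses differed by -0.70 ± 0.22 (edgeR adjusted p = 0.0421), and by -0.51 ± 0.18 without 10 mM library 1 (edgeR adjusted p = 0.03). The dose call needed each of several libraries and failed on leaving out control library 1, 5 or 6, 10 mM library 2, 3 or 4 or any of 16 mM libraries 2 to 5 (edgeR adjusted p from 0.0506 to 0.124). Over the 17 libraries, log2(FPKM + 1) of RMI2 was most like that of LETMD1 (Pearson r = 0.979), MCCC1 (0.969), COA5 (0.967), ZNF524 (0.964) and EPSTI1 (0.964), as a description of libraries that share a dose.

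RMI1, the scaffold that RMI2 binds, went lowest at 10 mM. It ranged from 27.6 to 36.9 FPKM in control (median 33.0) and from 8.64 FPKM in library 1 to 23.7 FPKM at 10 mM (median 20.5), and had 22.8, 24.7, 23.9, 26.5 and 25.2 FPKM at 16 mM. No exposed library reached the lowest control. RMI1 fell by 0.69 ± 0.10 at 10 mM (edgeR adjusted p = 0.000126) and by 0.38 ± 0.10 at 16 mM (edgeR adjusted p = 0.0073). The 16 mM level exceeded the 10 mM level by 0.31 ± 0.10 (edgeR adjusted p = 0.0469), and by 0.26 ± 0.08 without 10 mM library 1 (edgeR adjusted p = 0.0156). The dose call was lost without any 1 of the 6 controls, of 10 mM libraries 2, 3, 5 and 6, or of 16 mM libraries 2 to 5 (edgeR adjusted p from 0.0531 to 0.142).

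TOP3A was lower at 10 mM alone. It ranged from 18.6 to 29.4 FPKM in control (median 22.8) and from 11.6 to 18 FPKM at 10 mM (median 16.7), and had 23.1, 24.6, 24.1, 25.6 and 25.4 FPKM at 16 mM. In FPKM all 10 mM libraries lay below all controls and below all 16 mM libraries. On edgeR's scale 10 mM library 1 may not lie below the controls. TOP3A changed by -0.40 ± 0.11 at 10 mM (edgeR adjusted p = 0.0175) and by 0.09 ± 0.11 at 16 mM (edgeR adjusted p = 0.567), and 16 mM exceeded 10 mM by 0.49 ± 0.11 (edgeR adjusted p = 0.0106). BLM itself averaged 31.4 ± 5.29 FPKM at 16 mM (SD, n = 5) and 31.3 ± 5.54 FPKM in control (n = 6). Its change was 0.03 ± 0.12 (edgeR adjusted p = 0.857). TOP3B, the related topoisomerase, rose only in the fit without 10 mM library 1, by 0.28 ± 0.08 at 16 mM and by 0.37 ± 0.08 at 10 mM.

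Of the 8 tested incision nucleases 1 changed at each dose over 17 libraries, beside 35.3% of all tested genes at 16 mM and 18.7% at 10 mM. MUS81, the catalytic subunit of a structure-specific nuclease, ranged from 17.7 to 27.6 FPKM in control (median 22.8) and from 10.7 to 17.6 FPKM at 10 mM (median 15.6), and had 18.9, 19.6, 17.8, 14.1 and 15.4 FPKM at 16 mM. In FPKM all 10 mM libraries lay below the controls, though library 1 may not on edgeR's scale. At 16 mM libraries 1 to 3 overlapped controls 4 to 6. MUS81 fell by 0.43 ± 0.10 at 10 mM (edgeR adjusted p = 0.00855) and by 0.36 ± 0.11 at 16 mM (edgeR adjusted p = 0.0157; 0.0502 without 16 mM library 4). Its partner EME1 averaged 27.0 ± 3.40 FPKM at 16 mM (SD, n = 5) and 28.2 ± 5.42 FPKM in control (n = 6) and did not pass. The scaffold SLX4 had 6.99, 7.12, 6.51, 5.09 and 5.18 FPKM at 16 mM, against 6.32 to 7.81 FPKM in control (median 6.83), and ERCC4, the catalytic subunit of the XPF nuclease, had 3.28, 3.21, 3.08, 2.80 and 2.71 FPKM, against 2.27 to 3.00 FPKM (median 2.52). Both overlapped their controls. Without 10 mM library 1, ERCC4 (0.25 ± 0.06) and the nuclease FAN1 (0.24 ± 0.05) were higher at 16 mM, and MUS81, SLX4 (-0.17 ± 0.07) and SLX1A (-0.28 ± 0.06) lower. EME2, a further MUS81 partner, and ERCC1, the partner of ERCC4, passed at neither dose in either fit.

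Among the 6 translesion polymerases none passed at 16 mM over 17 libraries by edgeR, beside 35.3% of all tested genes. There 2 had an unadjusted p under 0.05 and 1 was called by DESeq2. POLN, the least abundant member, had 0.23, 0.16, 0.31, 0.21 and 0.35 FPKM at 16 mM, against 0.32 to 0.46 FPKM in control (median 0.43), with an overlap at library 5 alone. It changed by -0.70 ± 0.28 there (edgeR adjusted p = 0.0617) and by -0.80 ± 0.27 at 10 mM (edgeR adjusted p = 0.0471), and the 10 mM call was lost in 13 fits that left out 1 library, those without any 1 of the 6 controls, of 10 mM libraries 2, 4, 5 and 6, or of 16 mM libraries 1, 3 and 4 (edgeR adjusted p from 0.0508 to 0.0889). POLH, which copies past ultraviolet lesions, ranged from 12.8 to 15.9 FPKM in control (median 14.4), had 3.16 FPKM in 10 mM library 1, 28.9, 26.8 and 28.7 FPKM in 10 mM libraries 2 to 4 and 15.2 and 16.5 FPKM in libraries 5 and 6, and had 21.3, 21.9, 22.1, 18.7 and 18.6 FPKM at 16 mM. The 16 mM libraries all lay above the controls, and the 10 mM group split by set. POLH changed by 0.57 ± 0.27 at 16 mM with 10 mM library 1 in the fit (edgeR adjusted p = 0.107) and by 0.58 ± 0.13 without it (edgeR adjusted p = 0.000667). REV3L, the catalytic subunit of polymerase zeta, had 8.17, 7.77, 8.11, 5.89 and 5.82 FPKM at 16 mM, against 7.67 to 8.81 FPKM in control (median 8.45), and its change of -0.20 ± 0.25 did not pass (edgeR adjusted p = 0.565). POLI was lower in the fit without 10 mM library 1 at 16 mM (-0.27 ± 0.08) and at 10 mM (-0.25 ± 0.08), while POLK and REV1 passed at neither dose in either fit.

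In homologous recombination, PALB2, the bridge between BRCA1 and BRCA2, fell at both doses. It ranged from 12.7 to 21.8 FPKM in control (median 16.6) and from 5.54 FPKM in library 1 to 13.2 FPKM at 10 mM (median 11.3), and had 13.8, 13.2, 15.2, 10.6 and 10.5 FPKM at 16 mM. Some exposed libraries at each dose reached the range of controls 4 to 6, and all lay below controls 1 to 3. PALB2 changed by -0.57 ± 0.14 at 10 mM (edgeR adjusted p = 0.00774) and by -0.41 ± 0.14 at 16 mM (edgeR adjusted p = 0.0333), and the 16 mM call was lost without control library 1, 2 or 3 or 16 mM library 2, 4 or 5 (edgeR adjusted p from 0.0567 to 0.0889).

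BRCA1, the scaffold that directs PALB2 to breaks, ranged from 28.9 to 42.4 FPKM in control (median 35.1) and from 9.72 FPKM in library 1 to 30.0 FPKM at 10 mM (median 27.2), and had 32.5, 33.8, 34.1, 24.4 and 24.7 FPKM at 16 mM. Its groups overlapped at both doses. BRCA1 fell by 0.49 ± 0.15 at 10 mM (edgeR adjusted p = 0.0363), and its change at 16 mM was -0.22 ± 0.16 (edgeR adjusted p = 0.317). The 10 mM call was lost without control library 1, 2 or 3 or 10 mM library 5 or 6 (edgeR adjusted p from 0.052 to 0.0814). BRCA2 had 17.9, 17.5, 19.4, 12.1 and 12.4 FPKM at 16 mM, against 11.2 to 19.7 FPKM in control (median 14.6), and did not pass (0.09 ± 0.30, edgeR adjusted p = 0.841). In both genes 16 mM libraries 4 and 5 lay below 1 to 3, as controls 4 to 6 lay below 1 to 3. BRIP1, a helicase that binds BRCA1, was lower in the fit without 10 mM library 1 (-0.40 ± 0.10 at 16 mM and -0.34 ± 0.10 at 10 mM), and RAD51C, which acts in strand exchange, passed at neither dose in either fit.

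The 4 checkpoint and mismatch repair members passed edgeR's test at neither dose over 17 libraries. Of all tested genes 35.3% passed at 16 mM and 18.7% at 10 mM. Of the 4 members 2 and 0 had an unadjusted p under 0.05 at 16 and 10 mM, and DESeq2 called 1 and 0. ATRIP, which carries the kinase ATR to single-stranded DNA, ranged from 6.02 to 7.68 FPKM in control (median 7.42) and from 6.61 to 8.43 FPKM at 10 mM (median 7.30), and had 9.10, 10.3, 9.73, 8.62 and 9.29 FPKM at 16 mM. In FPKM all 16 mM libraries exceeded all others, though 10 mM library 1 may not lie below them on edgeR's scale. The change of 0.40 ± 0.17 did not pass (edgeR adjusted p = 0.0795), and without 10 mM library 1 it did (0.41 ± 0.08, edgeR adjusted p = 0.000163). PMS2 had 29.3, 30.3, 29.9, 27.4 and 28.2 FPKM at 16 mM, against 10.7 to 24.5 FPKM at 10 mM (median 23.5), without overlap. That dose difference was 0.33 ± 0.08 (edgeR adjusted p = 0.0133). ATR itself was slightly higher at 16 mM in the fit without 10 mM library 1 (0.16 ± 0.07, edgeR adjusted p = 0.0351).

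**Figure D4:**
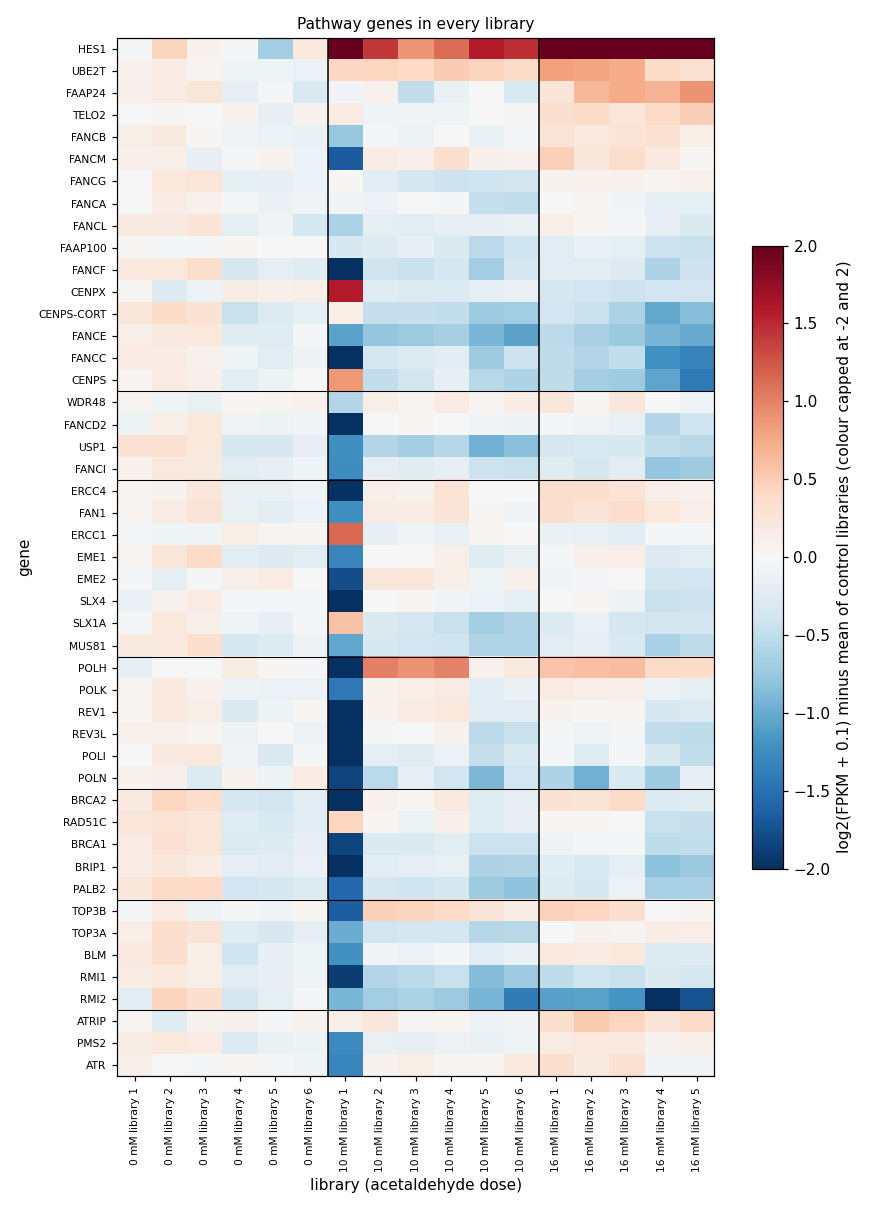
Log2(FPKM + 0.1) of 47 members in every library minus the mean of the controls, by role, with libraries in columns from 0 to 16 mM. 10 mM library 1 is mostly blue apart from short transcripts, and RMI2, FANCE and FANCC are blue in every exposed library.

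Between the doses 5 of 49 members differed, beside 14.1% of all tested genes. TOP3A, PMS2, FANCB and RMI1 were higher at 16 mM than at 10 mM (6.69% of all genes were), and RMI2 was lower (7.46% were). Without 10 mM library 1 there were 18 (12 higher, 6 lower) beside 44.1% (23.2% higher, 20.9% lower). The count was 2 without 16 mM library 4 and 3 in 8 other fits that left out 1 library (without 10 mM library 2 or 3, 16 mM library 2, 3 or 5, or control library 1, 5 or 6). TOP3A and PMS2 were called in each of the fits that left out 1 library.

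Within the sets of close libraries most directions held. At 16 mM 41 of 49 members had the same sign in libraries 1 to 3 over controls 1 to 3 and in libraries 4 to 5 over controls 4 to 6, with medians of -0.13 and -0.13. At 10 mM 38 of 49 did, with medians of -0.21 for libraries 2 to 4 and -0.15 for libraries 5 to 6. The share of all tested genes with the same sign was not computed, so these counts do not set the members apart from other genes. RMI2 changed by -1.32 and -1.67 in the sets at 16 mM, FANCE by -0.79 and -0.76, UBE2T by 0.70 and 0.47, and HES1 by 3.02 and 3.57. TOP3A at 16 mM went opposite ways, at -0.18 in the first set and 0.43 in the second. POLH at 10 mM changed by 1.10 in the first set and by 0.16 in the second. That sets of different doses belong together is not stated in the labels.

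**Figure D5:**
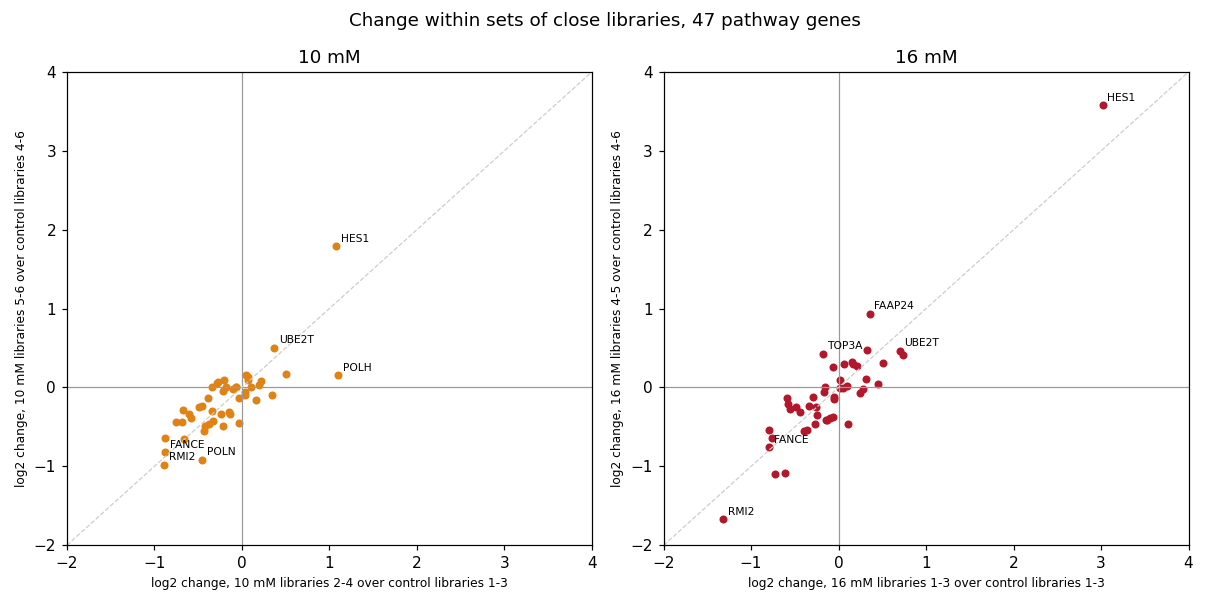
Log2 change of 47 members within the first set of close libraries (horizontal axis) and within the second (vertical axis), at 10 mM (left) and 16 mM (right), with the dashed line for equal values. HES1 lies far above 0 and RMI2 below -1 in both sets at 16 mM, and POLH at 10 mM lies off the line.

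A list of 24 tested genes of crosslink repair outside the members included RPA1, RPA2 and RPA3, which carry the annotation but were set aside. Of these 24, 2 were higher and 9 lower at 16 mM, beside 17.3% higher and 18.1% lower of all tested genes. At 10 mM 0 were higher and 6 lower, beside 9.41% higher and 9.3% lower of all tested genes. With 10 mM library 1 left out these were 4 higher and 12 lower at 16 mM, beside 33.7% and 32.2% of all genes. In that fit 0 were higher and 12 lower at 10 mM, beside 22.4% and 22.8%. RAD51B, which acts in strand exchange with RAD51C, had 1.81, 1.5, 1.60, 0.88 and 1.35 FPKM at 16 mM, against 4.82 to 7.38 FPKM in control, without overlap, and fell by 2.68 ± 0.36 (edgeR adjusted p = 2.61e-05), further than any member. NBN, of the MRE11 complex, fell by 0.90 ± 0.14, and HELQ, a helicase that acts at crosslinks, rose by 0.65 ± 0.09. XRCC2, a further recombination factor, fell by 0.70 ± 0.13 and the nuclease DCLRE1B by 0.52 ± 0.08 at 10 mM. The single-strand binding subunits set aside by the rule, RPA1, RPA2 and RPA3, did not pass over 17 libraries at either dose. In the fit without 10 mM library 1 RPA2 was higher at 16 mM (0.44 ± 0.04), RPA3 was lower at 16 mM (-0.50 ± 0.06) and at 10 mM (-0.40 ± 0.06), and RPA1 passed at neither dose. Of 16 cell cycle genes 1 was higher and 2 lower at each dose, and without 10 mM library 1 these were 2 and 4 at 16 mM and 1 and 5 at 10 mM, to be read against the same shares of all genes. CDK1 rose at 16 mM (0.38 ± 0.14) and at 10 mM (0.57 ± 0.14), E2F8 fell at 16 mM (-0.62 ± 0.15) and at 10 mM (-0.61 ± 0.14), E2F2 fell at 16 mM (-0.68 ± 0.26) and CCNE2 at 10 mM (-0.44 ± 0.10). Their part in the member changes was not tested. Of 9 aldehyde-clearing enzymes 2 were higher and 4 lower at 16 mM, which is 66.7% of them beside 35.3% of all tested genes. ALDH2, a mitochondrial acetaldehyde dehydrogenase, changed by -0.38 ± 0.10 there (edgeR adjusted p = 0.00709), and by -0.62 and -0.08 within the sets of close libraries. ALDH3A1, ALDH1A1 and ALDH7A1 were lower as well. The 2 higher were ALDH1B1 (0.59 ± 0.17, edgeR adjusted p = 0.0113) and ALDH9A1 (0.39 ± 0.14, edgeR adjusted p = 0.0405). At 10 mM 0 passed edgeR's test, beside 18.7% of all genes, while 3 had an unadjusted p under 0.05 and DESeq2 called 2. On leaving out 10 mM library 1 there were 3 higher and 5 lower at 16 mM, which is 88.9% beside 65.9% of all genes. At 10 mM 1 was higher and 2 lower, which is 33.3% beside 45.2%, with the formaldehyde-clearing ADH5 at 0.26 ± 0.07 and the lysine pathway enzyme ALDH7A1 at -0.29 ± 0.05.

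The authors' deposited table, from their own DESeq2 comparisons, has 34 of the 50 members at a q-value under 0.05 for 16 mM against control, 12 of them higher at 16 mM. Among all genes to which the authors' deposited table gives a q-value, 50.4% were under 0.05 there (25% higher, 25.4% lower). For 10 mM against control the authors' deposited table has 14 members, 2 of them higher at 10 mM, beside 15.4% of all genes (7.74% higher, 7.68% lower).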

How the data were processed

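RNA of 17 BEAS-2B libraries (6 control, 6 at 10 mM, 5 at 16 mM) was enriched for poly-A messenger RNA, per the labels' protocols. Per the submitters' processing notes, the tools were DESeq2 1.4.5, RSEM 1.3.1, Bowtie2 2.3.4.3 and HISAT, on genome build GRCh38.p13; their roles and the strand setting are not given in the sources used here. Because 13.1% of the deposited read counts are not whole, they were treated as estimated counts. The deposited FPKM, per the file headers, served for levels, and the deposited TPM gave no value here. The authors' log2 fold changes were used only for their sign. Of the deposited p-values and q-values, from the authors' DESeq2 comparisons, only the q-values were used, where the authors' table is named. All per-sample columns matched a sample.

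Estimated counts were rounded and fitted with edgeR 4.0.16 (R 4.3.3; TMM, filterByExpr, glmQLFit and glmQLFTest, 14 residual degrees of freedom) over 12564 genes in 1 fit of the 17 libraries with no block. Tests were two-sided with Benjamini-Hochberg adjustment over all genes tested. The SE, which edgeR does not give, is the absolute log2 change over the square root of F. FPKM are not scaled by the TMM factor, which was 0.559 in 10 mM library 1 and at least 0.967 elsewhere, so FPKM of that library stand lower against the others than on edgeR's scale. No pair of libraries agreed within counting noise, so each counts once. Coordinates are those of the deposited table; TOP3A and FAN1 have none used here. Strand is not stated, so overlapping antisense genes cannot be told apart.

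The members, roles, other gene lists, sets of close libraries and tests were chosen with earlier results of these data known. Of the 49 tested members 47 are described and plotted, while the values of the others enter the counts and medians and are not reported here; per-library values are given for up to 12 called members per contrast with control (smallest p, mean of at least 1 FPKM in a group), up to 6 between doses, the member with the smallest p of each role at 16 mM, and anchor genes, among them FANCA, FANCM, FANCL, UBE2T, FANCD2, FANCI, USP1, SLX4, ERCC4, BRCA1, BRCA2, REV3L and HES1. POLH and CENPX were chosen for per-library values after these were seen. Alternatives were DESeq2 size factors, no count filter, the DESeq2 1.42.0 Wald test, limma 3.58.1 on log2(FPKM + 1) and log2(FPKM + 0.1) for genes at 1 FPKM or more in at least 5 libraries, a block for the replicate number, only the groups compared, each library left out, and close libraries summed. The sum without 10 mM library 1 was added after the data were seen. The fit was tested on simulated counts.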

Additional observations from a re-analysis of the deposited data

Results flagged for a closer look

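In groups of 4 to 10 libraries, a highest or lowest library was singled out when its gap to the nearest other library, over the whole range of the group, passed Dixon's 95% critical value. This held in 13 of 81 groups tested, and chance gives about 1 in 20. In 12 of the 13 the library was 10 mM library 1. There FANCI stood at 32.2 FPKM, FANCB at 8.24, FANCF at 0.34, FANCL at 16.2, PMS2 at 10.7 and FANCM at 1.65 FPKM, each below the other 10 mM libraries. FANCD2 stood at 6.00, SLX4 at 0.57, ERCC4 at 0.57, BRCA1 at 9.72 and BRCA2 at 1.54 FPKM, below them as well. These FPKM leave out the TMM factor (0.559 in that library), so some of its low values may not stand apart on edgeR's scale. HES1 at 25.1 FPKM stood above the other 10 mM libraries, whose highest value was 2.21 FPKM. The remaining one was ATRIP in control library 2, at 6.02 FPKM below the next control at 7.08 FPKM.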

How the results depend on the processing

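At 16 mM the 12 members called became 34 without 10 mM library 1, 33 with only the groups compared, 37 with the replicate block and without that library, 7 with close libraries summed and that library left out, and 0 with close libraries summed (edgeR, 2 members at an unadjusted p under 0.05). Leaving out each library in turn gave 8 to 34. At 10 mM the 15 called became 28 without 10 mM library 1, 27 with the replicate block and without that library, 9 with the replicate block, 1 with close libraries summed without that library and 0 with them summed (edgeR, 2 at an unadjusted p under 0.05). Leaving out each library gave 8 to 28. Between the doses the 5 called became 18 without 10 mM library 1, 16 with the replicate block and without it, 3 with the replicate block, 3 with no filter on low counts, 1 with only the groups compared, and 0 with close libraries summed. It was also 0 when they were summed without that library (edgeR, 6 members at an unadjusted p under 0.05, against 0 with it). Leaving out each library gave 2 to 18. DESeq2's Wald test called 15, 15 and 6, and limma on log2(FPKM + 1) 13, 12 and 6. Why these counts moved was not tested. The calls over all genes moved too, so these counts do not set the members apart from other genes. At 16 mM 4439 of 12564 genes were called in the main fit and 8271 of 12545 without 10 mM library 1. They were 7979 of 12410 with only the groups compared and 8506 of 12545 with the block and without that library. At 10 mM 2351 became 5670 without that library and 1824 with the block. Between the doses 1777 became 5537 without it and 569 with only the groups compared.

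Whether the replicate numbers pair the libraries was not settled by the correlations of same-numbered libraries with controls, which were mixed. At 16 mM pair 1 correlated at r = -0.04 and pair 4 at r = 0.26 (best other control 0.20). At 10 mM pair 4 correlated at r = -0.21 and pair 2 at r = 0.30 (best other control 0.24). Some libraries correlated best with their own number and others did not. At 16 mM the block left the count at 12, with 2 higher and 10 lower in place of 4 and 8.

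Over the named genes, 1943 values under the alternatives kept their side of the threshold, 183 no longer passed and 73 came to pass. A further 5 turned sign with a call in the main fit or in the alternative. Values that turned sign without a call in either were counted among the 1943. Between the doses UBE2T turned to 0.19 without 10 mM library 1 (from -0.072 to 0.19 over the libraries left out), and HES1 to 1.87 without it (from -0.71 to 1.87) and 1.99 with the block as well. Within the first set of close libraries FAAP24 at 10 mM stood at -0.34 and TOP3A at 16 mM at -0.18.

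Counting limits the least abundant members, POLN, FANCF, SLX1B and, in control, HES1 (mean 0.69 FPKM), whose change is measured from that low level.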
